A study of Mus musculus with 36 samples.

Results

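Mmd2 and the other progestin and adipoQ receptor (PAQR) genes were followed in mouse liver. The members were 8 named genes of the family (Mmd2, Mmd, Paqr7, Paqr9, Paqr3, Paqr4, Adipor1 and Adipor2), taken by symbol from a table of 53715 gene identifiers. All 8 passed the low-count filter that left 14068 genes for testing. The remaining family genes, Paqr5, Paqr6 and Paqr8, were looked up beside them. Mmd2 was chosen because it stood out in the comparison of red tomato with control in these same livers, and it was thus chosen by its log2 fold change and p-value there. Its diet differences are therefore given as a description and carry no p-value.

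The livers came from 36 male C57BL/6 mice aged 10 weeks, 1 library a mouse and 12 a diet. The count of 12 mice a diet rests on the mouse numbers, all different, while the labels give the group size as a range up to 12. From 4 weeks of age and for 6 weeks the control mice ate AIN93G, a purified rodent diet, and the others ate it with powder of red or of tangerine tomatoes at 10% of the diet by weight. All groups shared strain, sex, age and base diet, and the labels name no genetic change. Total counts ranged from 21290169 to 33810573 a library. The summed level of 5 hepatocyte markers was 81750 to 120800 CPM (reads of a gene per 1e6 counted reads) in every library, as the tissue label says. The library of red mouse 186 stood apart in its T cell markers, which summed to 144.2 CPM against at most 3.91 CPM in any other red library. It was also highest for adipocyte markers, at 10.0 CPM against 6.00 in the next red library. Tangerine mouse 192 stood apart in its cholangiocyte markers (111 CPM, next tangerine library 29.5), and the library of tangerine mouse 216 in its pancreas markers, which summed to 11.8 CPM against at most 0.33 CPM in any library of the other diets. The Mmd2 differences, the counts of genes called and some correlations of Mmd2 are given with and without some of these libraries. Other results are given with them only.

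PAQR proteins span the membrane several times with a topology unlike that of G protein-coupled receptors. Adipor1 and Adipor2 bind adiponectin, the fat-derived hormone that acts on the liver through AMPK and PPARA and lowers ceramides. Paqr7, Paqr8, Paqr5, Paqr6 and Paqr9 form the membrane progesterone receptor branch. Paqr3 is a Golgi protein that holds signalling proteins at that membrane, and Mmd and Mmd2 are Golgi-resident members of the family that act on Ras signalling there. Mmd was named for its rise when monocytes mature into macrophages.

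The stretch of 250 bases before the annotated start site in RefSeq is shown for 4 genes (RefSeq, GRCm38.p6, 5′ to 3′ on the gene's strand). Each of the 4 moved with or against another of them among livers by Pearson's r, though not every pair of them passed. Mmd2 and Mmd are the close relatives with unlike levels, and Adipor1 and Adipor2 the 2 adiponectin receptors. Capitals mark the GC box, spelled GGGCGG, the box named for its letters CCAAT, or touching or overlapping copies of the GC box, on either strand.
Mmd2 (chr5:142608753-142609002, minus strand): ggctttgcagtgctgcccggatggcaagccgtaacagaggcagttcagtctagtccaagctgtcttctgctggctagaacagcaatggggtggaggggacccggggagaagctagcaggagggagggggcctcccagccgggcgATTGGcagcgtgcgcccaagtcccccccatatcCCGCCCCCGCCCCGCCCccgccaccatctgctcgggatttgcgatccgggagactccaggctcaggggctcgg
Mmd (chr11:90249226-90249475, plus strand): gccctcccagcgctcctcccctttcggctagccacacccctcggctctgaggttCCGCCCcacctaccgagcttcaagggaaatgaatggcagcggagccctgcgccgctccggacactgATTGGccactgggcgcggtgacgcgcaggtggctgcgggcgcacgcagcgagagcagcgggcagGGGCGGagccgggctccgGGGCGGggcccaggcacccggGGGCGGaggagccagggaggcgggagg
Adipor1 (chr1:134415128-134415377, plus strand): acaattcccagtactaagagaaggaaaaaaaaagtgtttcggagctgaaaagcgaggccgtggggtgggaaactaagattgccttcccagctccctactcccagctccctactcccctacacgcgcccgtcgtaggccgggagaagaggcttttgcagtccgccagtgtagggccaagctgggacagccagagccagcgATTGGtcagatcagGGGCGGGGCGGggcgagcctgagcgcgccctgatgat
Adipor2 (chr6:119388735-119388984, minus strand): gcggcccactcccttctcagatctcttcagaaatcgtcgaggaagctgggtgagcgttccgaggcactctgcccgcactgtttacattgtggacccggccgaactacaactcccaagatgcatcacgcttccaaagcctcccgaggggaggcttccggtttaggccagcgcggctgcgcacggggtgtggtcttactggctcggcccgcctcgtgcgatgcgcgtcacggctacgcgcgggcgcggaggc
The Mmd2 window held 3 GC boxes in 1 unbroken run and 1 CCAAT box. The Mmd window held 4 GC boxes and 1 CCAAT box, and the Adipor1 window, the first of 2 annotated for that gene, held 2 GC boxes and 1 CCAAT box. The Adipor2 window, which held neither, lies before a RefSeq start inside the longer gene span that GENCODE gives and not before the outermost start. Across all 32851 RefSeq windows of this length, 32.7% held a GC box and 33.8% a CCAAT box. An E-box (CACGTG), the site of clock activators, was searched on both strands too and occurs in 6.02% of windows, and a D-box (TTATGNAA), the site of the Dbp group of factors, occurs in 3.07%. Of the 13 windows of the 10 family genes that matched the table, none held the E-box letters and 1, the second Paqr7 window, held those of the D-box. Paqr9 had no window there and was not searched. These are letter matches in a short window and not measured binding.

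The first question was how much of each family transcript the liver holds. Between genes, levels were compared as CPM per kilobase of annotated exon, averaged over all 36 livers. Adipor2 led with 113 ± 13.98 (SD, n = 36), followed by Paqr9 with 53.1 ± 12.6. Mmd (23.8 ± 7.14) and Adipor1 (21.7 ± 1.14) came next and differed by less than the spread of Mmd. Paqr7 had 8.81 ± 2.45. Mmd2 (1.34 ± 0.477) and Paqr3 (1.28 ± 0.236) lay lower and could not be told apart over all livers, and Paqr4 had 0.436 ± 0.0969. Of the 3 genes outside the members, Paqr8 had 0.0962 ± 0.0331. Paqr6 and Paqr5 gave only 50 and 28 counts in all 36 libraries together, with 0 to 5 and 0 to 4 counts a library, and were not tested. A count of 3 was taken as the limit of what a library with no count allows.

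**Figure D1:**
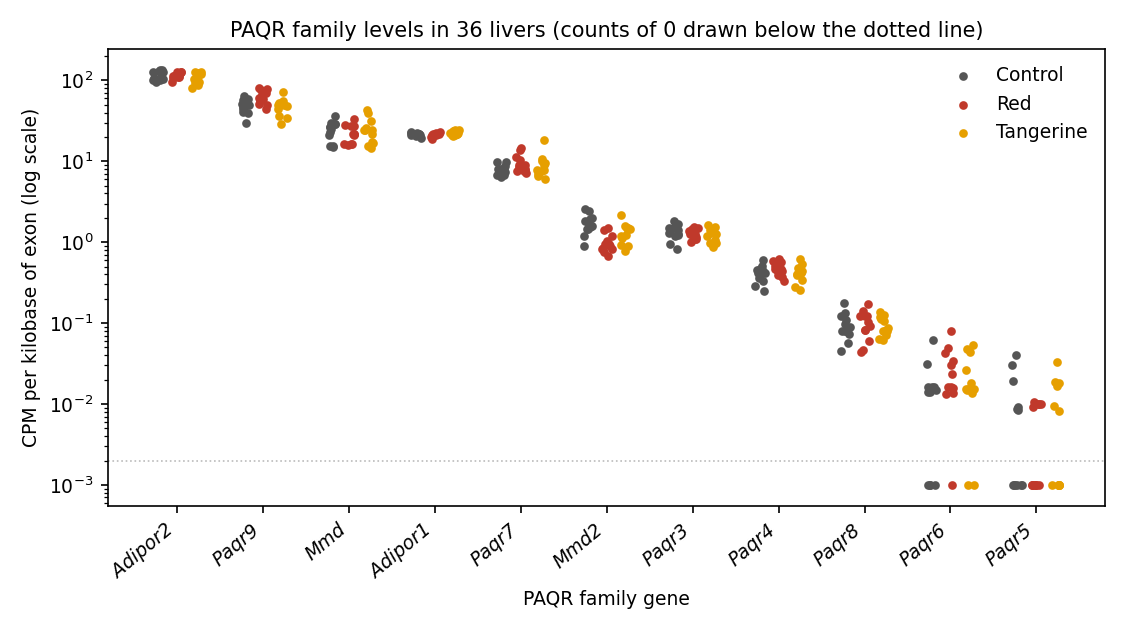
Level of the 11 PAQR family genes in each liver, as CPM per kilobase of exon on a log axis, 1 point a liver and 12 livers a diet; counts of 0 are drawn below the dotted line. Adipor2 lies highest, near 113 on average, Mmd2 near 1.34, and Paqr5 and Paqr6 at the edge of detection.

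Mmd2 (ENSMUSG00000039533, chromosome 5, 142562358 to 142608800, minus strand, protein coding) was the family member with the largest diet difference. In CPM, the control livers ranged from 4.66 to 13.4 with a median of 8.25. Red livers ranged from 3.51 to 7.86 with a median of 4.81, and tangerine livers from 4.07 to 11.4 with a median of 6.97. All 12 red livers lay below the control median and 6 of them lay below every control liver, while the other red livers lay among the lower control livers. Tangerine livers fell between, with 11 of 12 below the control median. The counts behind these levels were 90 to 343 reads a library.

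The edgeR log2 fold change of Mmd2 was -0.79 (SE 0.156) for red against control, from a mean of 8.85 ± 2.49 CPM to 5.13 ± 1.33 CPM (SD, n = 12 each). It was -0.37 (SE 0.154) for tangerine against control, and 0.42 (SE 0.157) for tangerine against red, with a tangerine mean of 6.86 ± 2.00 CPM. These 3 differences share libraries, so none is independent of the one that led to the choice of Mmd2. Their sizes may be overstated by that choice, and their SEs do not serve as a test. The highest red liver for Mmd2 was mouse 186, and without it the difference from control was -0.86. The lowest tangerine liver was mouse 216, and without it the difference of tangerine from control was -0.32. Per kilobase, Mmd2 stood above Paqr3 on control (1.70 against 1.34) and below it on red (0.987 against 1.28). In bulk liver, fewer cells that express a gene and less of its RNA per cell cannot be told apart.

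**Figure D2:**
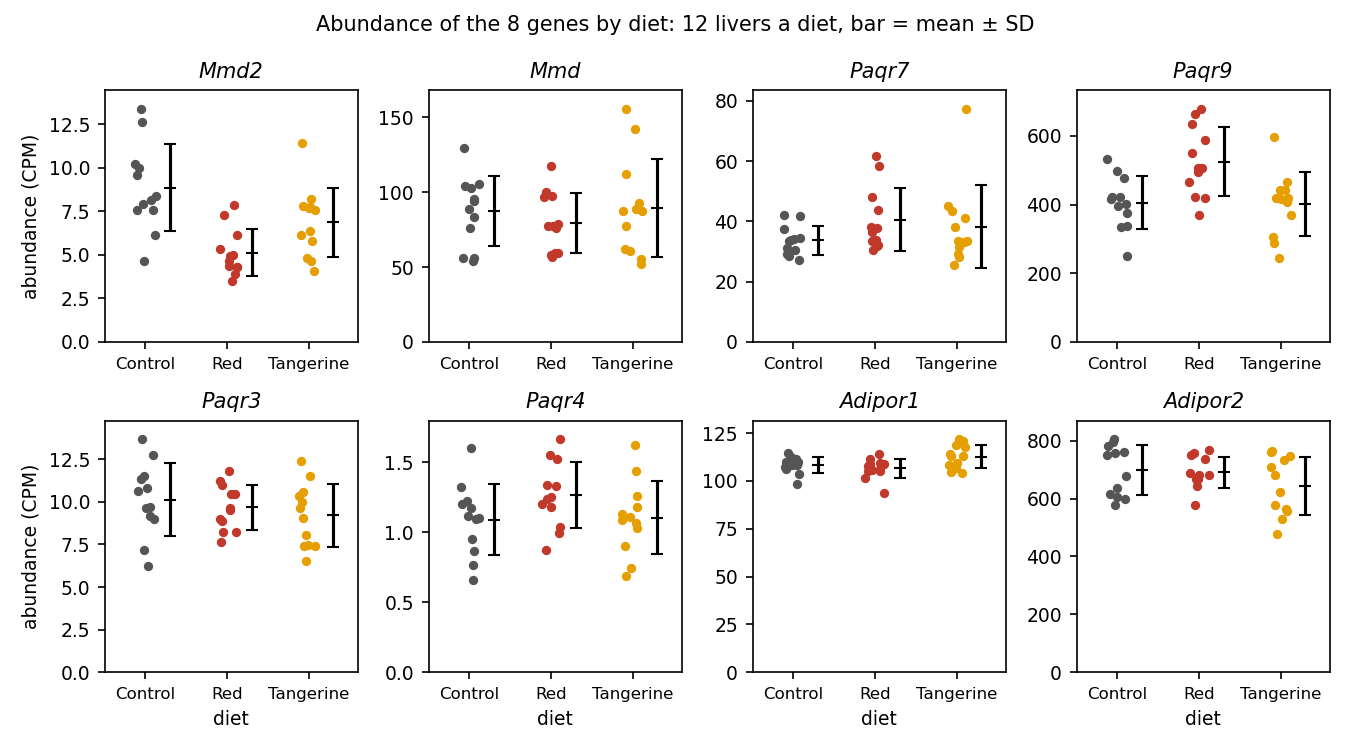
Abundance in CPM of the 8 genes in each liver (points, 12 a diet) with the mean and SD of each diet beside them; every axis starts at 0. The Mmd2 points on red lie at 3.51 to 7.86 CPM, within and below the lower part of the control range of 4.66 to 13.4, and the Paqr9 points on red at 370 to 678.

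The other 7 members were then tested in the same comparisons, with p-values adjusted over all 14068 genes. With edgeR's quasi-likelihood test, 0 of 7 passed an adjusted p of 0.05 for red against control, where 0.149% of all genes passed (0.0498% higher and 0.0995% lower). For tangerine against control 0 of 7 passed (background 0.0142%, all higher), and for tangerine against red 0 of 7 passed (background 1.71%, 0.732% higher and 0.981% lower). At an unadjusted p under 0.05 the 7 gave 1 gene (Paqr9), 0 genes and 2 genes (Paqr9 and Adipor1) in the same order, where 13.3%, 5.47% and 15.1% of all genes had such a p. DESeq2 and limma-voom each called 1 of the 7, Paqr9, for tangerine against red, where they called 2.89% and 5.30% of all genes, and 0 in the other comparisons. Over all genes DESeq2 called 1.29% (red) and 0.0828% (tangerine) against control, among those it gave an adjusted p, and limma-voom called 10.7% and 0.0142%. Without red mouse 186, tangerine mouse 216, both of these or tangerine mouse 192, edgeR called 0 of the 7 in each comparison. DESeq2 gave no adjusted p to 3 of the 8 members for tangerine against control. The median log2 fold change of the 8 members was -0.020 (red against control), 0.00080 (tangerine against control) and -0.077 (tangerine against red), beside -0.0047, -0.012 and -0.0046 over all genes tested. These 8 include Mmd2, so the medians are a description only.

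Paqr9, a member of the progesterone receptor branch that is abundant in liver (chromosome 9, 95559657 to 95568023, plus strand), had its highest levels on red. Control livers ranged from 251.5 to 533.5 CPM (median 409), red livers from 370 to 678 CPM (median 506.5) and tangerine livers from 245 to 597.5 CPM (median 417.5). Of the red livers, 11 of 12 lay above the control median and 5 above every control liver. In log2 terms the difference was 0.37 (SE 0.118, adjusted p 0.141 in edgeR) for red against control and -0.39 (SE 0.118, edgeR adjusted p 0.0823) for tangerine against red, with 11 of 12 tangerine livers below the red median. Neither passed. For tangerine against red, DESeq2 gave an adjusted p of 0.0490 and limma-voom one of 0.0408, so the call turned on the tool, with adjusted p-values from 0.0408 to 0.576 over all settings. Tangerine and control means were 402 ± 92.6 and 406 ± 77.2 CPM (SD, n = 12 each), and the 95% interval of their log2 difference ran from -0.25 to 0.22.

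Paqr7, a membrane progesterone receptor (chromosome 4, 134496697 to 134510235), ranged from 27.1 to 42.0 CPM on control (median 33.8), 30.4 to 61.6 CPM on red (median 37.2) and 25.7 to 77.3 CPM on tangerine (median 33.4). On red, 4 livers exceeded every control liver, and 1 tangerine liver, mouse 226, stood highest at 77.3 CPM. The log2 fold change of 0.27 for red against control (SE 0.137) did not pass (edgeR adjusted p 0.399). With the clock score described below as covariate it was 0.40 (edgeR adjusted p 0.358).

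Neither adiponectin receptor gene passed in any comparison. Adipor1 (chromosome 1, 134415378 to 134433351) ranged from 98.6 to 115 CPM on control (median 109), 93.8 to 114 on red (median 107) and 104 to 122 on tangerine (median 113). The ranges overlapped, with 4 tangerine livers above every control and every red liver. These were mice 215, 216, 217 and 225, and no red mouse was numbered above 204. For these livers, diet and mouse number cannot be told apart in tangerine against red. Its means were 108.5 ± 4.23 CPM on control, 106.5 ± 5.17 on red and 113 ± 6.12 on tangerine (SD, n = 12 each). The largest of its 3 differences, 0.08 on the log2 scale for tangerine against red (SE 0.0357, edgeR adjusted p 0.261), had a 95% interval from 0.012 to 0.15. Adipor1 was among the steadiest transcripts of the liver, with a biological coefficient of variation of 7.0% that only 0.618% of tested genes undercut, where the median gene had 15.2%. Adipor2 (chromosome 6, 119353150 to 119417704) ranged from 578 to 804 CPM on control (median 715), 579 to 767 on red (median 682) and 478 to 764 on tangerine (median 652). It averaged 697 ± 86.0 CPM on control, 690 ± 54.0 on red and 644 ± 100.3 on tangerine. Its interval for tangerine against control ran from -0.26 to 0.03 (log2 fold change -0.12, edgeR adjusted p 0.959), and 5 tangerine livers lay below every control liver. Its biological coefficient of variation was 13.2%.

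Among the Golgi members, Mmd (chromosome 11, 90249456 to 90278589) had the largest biological coefficient of variation of the tested family genes, at 28.4%. As SD over mean, the low-count gene Paqr8 spread wider on control (38.4% against 26.7% for Mmd) and red (39.1% against 24.9%). On tangerine it did not (26.8% against 36.9%). Mmd levels ran from 54.1 to 129.5 CPM on control, 56.6 to 118 on red and 51.9 to 155 on tangerine, so the diets overlapped almost fully. Its 95% interval for red against control ran from -0.46 to 0.20 on the log2 scale (edgeR adjusted p 0.774). Whether Mmd and Mmd2 differed in response was not tested. The summed level of 6 Kupffer cell markers, the macrophages of the liver, was 84.5 to 279 CPM on control, 175 to 313 on red and 118 to 264 on tangerine, and its part in the Mmd level was not tested. Paqr3 (chromosome 5, 97082329 to 97111596) lay between 6.26 and 13.7 CPM in all 36 livers and averaged 10.1 ± 2.12, 9.67 ± 1.31 and 9.20 ± 1.85 CPM on control, red and tangerine. Paqr4 (chromosome 17, 23736186 to 23740867), which lay between 0.662 and 1.66 CPM in all livers, averaged 1.09 ± 0.254, 1.26 ± 0.234 and 1.10 ± 0.263 CPM. Neither passed in any comparison, with edgeR adjusted p-values of 0.501 or more.

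**Figure D3:**
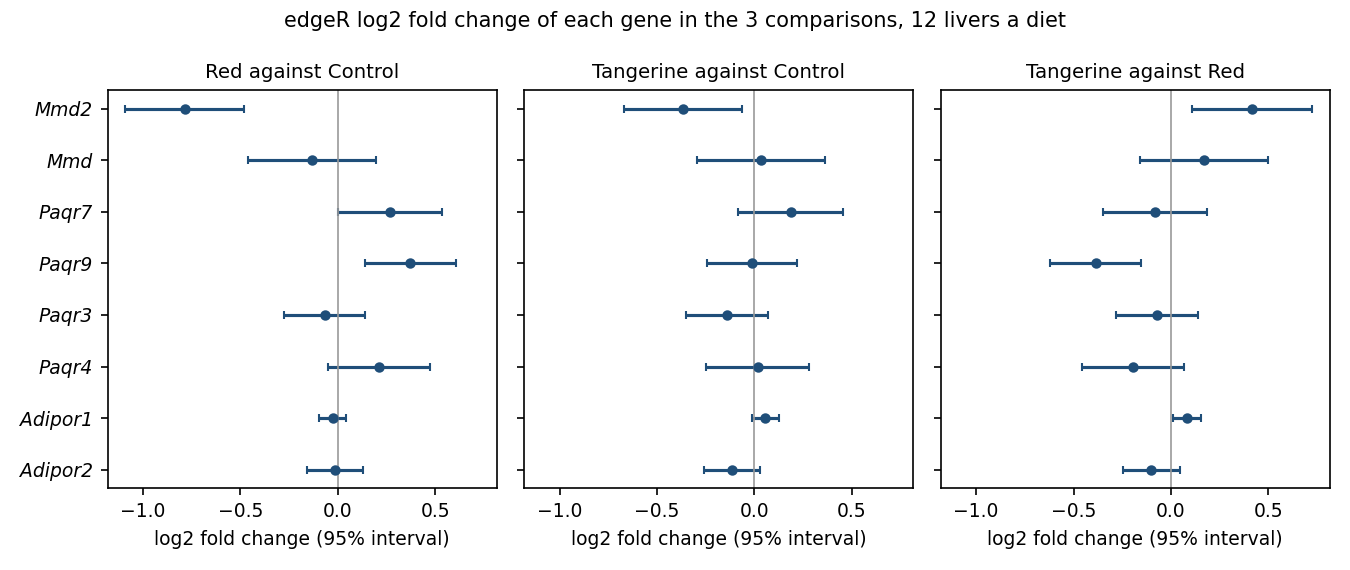
Log2 fold change from edgeR with its 95% interval for the 8 genes (rows) in the 3 comparisons (panels), 12 livers a diet. Mmd2 lies at -0.79 for red against control, Paqr9 lies at 0.37 there and at -0.39 for tangerine against red, and the Adipor1 intervals are the narrowest. The Mmd2 intervals come from the livers that led to its choice. They are a description and not a test.

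Reads of one family gene had no long shared sequence through which they could be counted for another: 0 stretches of 50 bases in the annotated transcripts of any of the 11 genes occurred in another of them. For Mmd2, 18 of 5142 such stretches (0.35%) occurred in a gene outside the family, and for Paqr9, Paqr4, Paqr5, Paqr8, Adipor1 and Adipor2 0 did. The share was 19.1% for Mmd, mostly in Gm45883, and 12.9% for Paqr6, mostly in Gm6821. It was 0.78% for Paqr7 and 0.12% for Paqr3. Neighbouring genes do share sequence. In the annotation, 12.1% of the exon bases of Paqr4 lie opposite exons of Pkmyt1 and 15.7% of those of Paqr3 opposite exons of Bmp2k. The library kit marks strand but the strand setting of the counting was not given in the sources used here, so the levels of Paqr3 and Paqr4 are uncertain to that extent. For Mmd, 13.7% of exon bases also belong to Gm45883 and 7.8% to Gm45716 on the same strand, and both were listed with 0 counts in every library.

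The genes around the receptors were examined as lists written out with earlier results of these livers known. Of 16 tested genes of the adiponectin and AMPK pathway, 0 passed in edgeR in any of the 3 comparisons. At an unadjusted p under 0.05 there were 3 for red against control (Prkaa1 higher, Prkag2 and Ppargc1a lower), 1 for tangerine against control (Ppara, higher) and 3 for tangerine against red (Appl1 and Prkaa1 lower, Ppargc1a higher). Over all genes, 13.3%, 5.47% and 15.1% had such a p in the same order. DESeq2 called 0 of the 16 in each comparison, and limma-voom called 2, 0 and 1, where it called 10.7%, 0.0142% and 5.30% of all genes. For tangerine against control, DESeq2 gave no adjusted p to 5 of the 16 and so could not call them. The same held there for 4 of the 22 ceramide genes, 3 of the 22 Ras and ERK genes and 1 of the 7 SREBP genes below. It also held for 1 of the 3 progesterone components and 2 of the 14 clock genes. Adipoq, the gene of the hormone itself, was not tested and had 0 to 3 counts in control livers, with 52 counts in 1 red liver. That liver was mouse 186, whose library also stood highest for adipocyte markers.

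Of 22 tested genes of ceramide and sphingosine metabolism, 0 passed in edgeR. In the 3 comparisons in the same order, 3, 0 and 4 had an unadjusted p under 0.05, beside 13.3%, 5.47% and 15.1% of all genes. The 3 for red against control were Sphk2, a sphingosine kinase (40.5 CPM on control, 53.4 on red, a log2 difference of 0.40, SE 0.113, adjusted p 0.106 in edgeR), Sgpl1 and S1pr2, all higher. The 4 for tangerine against red were Sgpl1, the sphingosine phosphate lyase (88.5 CPM on red, 75.6 on tangerine, a log2 difference of -0.23, SE 0.0690, adjusted p 0.0777 in edgeR), Sphk2, S1pr1 and S1pr2, all lower. DESeq2 called 1, 0 and 1 gene of this list, beside 1.29%, 0.0828% and 2.89% of all genes, and limma-voom 6, 0 and 2, beside 10.7%, 0.0142% and 5.30%. Genes of these lists that are named without passing were chosen after their values were seen. The median log2 fold change of the 22 genes was 0.01 on red and -0.03 on tangerine, each against control, and 0.02 between the 2 tomato diets.

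Of 22 tested genes of the Ras and ERK pathway, on which the Golgi members act, 0 passed in edgeR. At an unadjusted p under 0.05 there were 1, 1 and 0, beside 13.3%, 5.47% and 15.1% of all genes. Both times it was Dusp6, an ERK phosphatase, with 46.2 CPM on control, 36.6 on red and 36.6 on tangerine (edgeR adjusted p 0.374 and 0.912 against control). DESeq2 called 0 of these genes in each comparison and limma-voom 1, 0 and 0, where limma-voom called 10.7%, 0.0142% and 5.30% of all genes. Of 7 genes of SREBP tethering and processing, which Paqr3 is known to affect at the Golgi, 0 passed in edgeR. At an unadjusted p under 0.05 there were 2, 0 and 3, beside the same 13.3%, 5.47% and 15.1% of all genes. Srebf1 averaged 425 CPM on control, 340.0 on red and 434 on tangerine (edgeR adjusted p 0.300 for red against control). DESeq2 called 0 of the 7 in each comparison and limma-voom 0, 0 and 1, beside the same limma-voom shares of all genes. Of the membrane progesterone components, 3 of 4 were tested and 0 passed, with 0 at an unadjusted p under 0.05 and 0 called by DESeq2 or limma-voom. Among these, Pgrmc1 was abundant at 822 ± 131 CPM on control, and the nuclear receptor gene Pgr gave 0 to 3 counts a library.

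How the family genes varied together among mice of 1 diet was examined next, a measure that the choice of Mmd2 did not use. Log2 CPM was taken relative to the mean of its diet, and the 9 tested family genes gave 36 pairs over 36 livers. P-values came from two-sided permutation tests with 100000 shuffles within diets, adjusted over the 36 pairs. Of the 36 pairs, 7 passed an adjusted p of 0.05, 3 with a positive and 4 with a negative correlation, and 12 had an unadjusted p under 0.05. By rank correlation 3 of the pairs passed. Many genes of these livers vary together, so beside each pair stands the share of the 14067 other tested genes whose r with one or the other gene was at least as large in size.

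Mmd2 ran opposite to Adipor1, with Pearson's r of -0.62 (permutation p 0.00012, adjusted 0.00288) and Spearman's rho of -0.53 (permutation p 0.00152, adjusted 0.0182). The r was -0.71 among control livers, -0.41 among red and -0.74 among tangerine (n = 12 each). Without the 2 livers farthest from the median of Mmd2 it was -0.59, and without red mouse 186 and tangerine mouse 216 it was -0.54. An r of at least this size was found for 27 genes (0.192%) with Mmd2 and for 298 (2.12%) with Adipor1. The 2 adiponectin receptors ran opposite to each other, with r of -0.57 (permutation p 0.00052, adjusted 0.00624) and rho of -0.54 (permutation p 0.00128, adjusted 0.0182), and r of -0.56 without the 2 farthest livers. The shares of genes were 4.01% with Adipor1 and 1.60% with Adipor2. That r was -0.59 on control and -0.85 on tangerine but -0.02 on red, a contrast between diets that was not tested. Tangerine mice numbered 198 or below had 681 to 764 CPM of Adipor2, and those numbered 215 or above 478 to 624 CPM. For Adipor1 the ranges were 104 to 113 and 113 to 122 CPM in the same order. Those of Mmd2 were 6.38 to 11.4 and 4.07 to 8.20 CPM. The shuffles within diets did not account for mouse number, and its part in these correlations was not tested.

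Mmd and Paqr7 varied together, with r of 0.60 (permutation p 0.00016, adjusted 0.00288) and rho of 0.53 (permutation p 0.00147, adjusted 0.0182). Without the 2 farthest livers r was 0.46, and it was 0.34, 0.59 and 0.73 on control, red and tangerine. The highest liver for both genes was tangerine mouse 226. The shares of genes were 10.8% with Mmd and 1.57% with Paqr7. The other 4 pairs passed for Pearson's r and not by rank. They were Mmd2 with Adipor2 (r 0.48, permutation p 0.00542, adjusted 0.0390; rho 0.39, adjusted 0.0951), Paqr9 with Paqr3 (r 0.49, permutation p 0.00332, adjusted 0.0299; rho 0.43, adjusted 0.0765), Paqr7 with Adipor2 (r -0.45, permutation p 0.00762, adjusted 0.0457; rho -0.46, adjusted 0.0544) and Mmd with Adipor2 (r -0.46, permutation p 0.00959, adjusted 0.0493; rho -0.38, adjusted 0.103). For these 4 pairs in the same order, the shares of genes were 2.27% and 4.93%, 2.71% and 14.1%, 6.66% and 6.55%, and 23.4% and 5.54%, with the first and the second gene named. Among red livers their r was near 0, at 0.15, 0.045, -0.15 and -0.0040. It was 0.49, 0.83, -0.41 and -0.49 on control, and 0.62, 0.44, -0.63 and -0.61 on tangerine (n = 12 each). These contrasts between diets were not tested. Mmd2 and its nearest relative Mmd had r of -0.38 (permutation p 0.0290, adjusted 0.105), which did not pass.

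**Figure D4:**
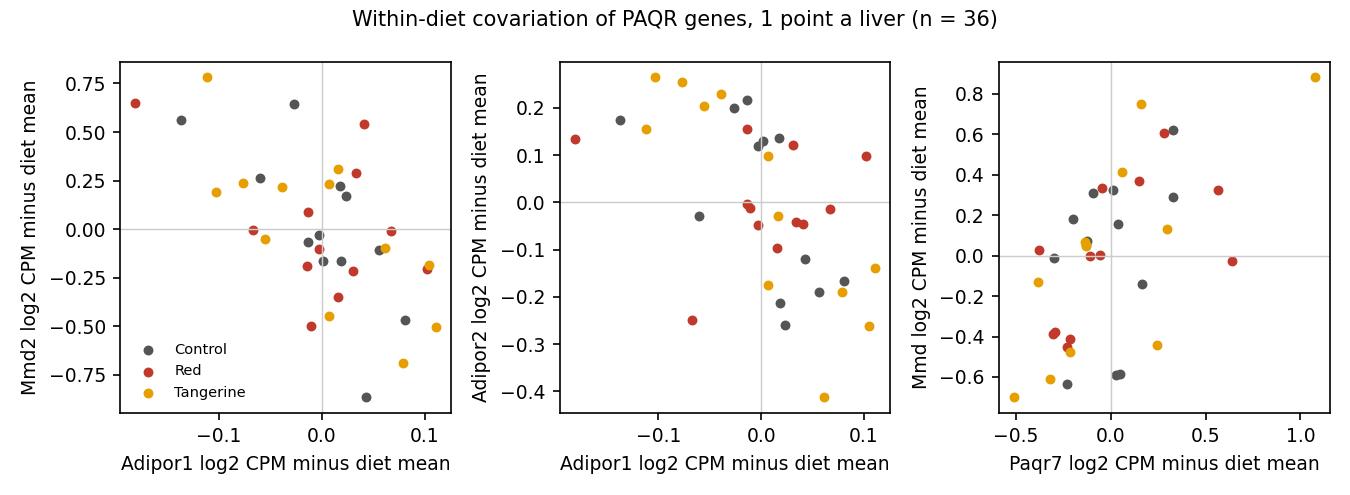
Log2 CPM minus the diet mean of Mmd2 against Adipor1, Adipor2 against Adipor1, and Mmd against Paqr7, 1 point a liver (n = 36) coloured by diet. The first and second clouds fall from left to right (r -0.62 and -0.57) and the last rises (r 0.60), with tangerine mouse 226 at its upper right end.

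By the same measure, the genes most like Mmd2 were sought among 10968 others whose log2 CPM averaged 1 or more. The highest r over the 36 livers were those of Eno1b (0.74), Lacc1 (0.70), Gm4735 (0.70), Col15a1 (0.70) and Fasn, the fatty acid synthase (0.69). The lowest were those of Gm30262 (-0.65), Gm12781 (-0.63), 2810459M11Rik (-0.62), Adipor1 (-0.62) and the cytochrome P450 gene Cyp2e1 (-0.62). For Adipor2 high values included those of Dhx33 (0.75), the fatty acid elongase Elovl6 (0.73), the liver pyruvate kinase Pklr (0.72) and Aacs (0.71), and the lowest were Amotl2 (-0.78), Gata6 (-0.76), Gemin2 (-0.74), 1600014C10Rik (-0.72) and Slc27a2 (-0.69). All of these values share libraries and scaling and are a description only.

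The family was also set against the circadian clock. With edgeR 7 of 14 clock genes passed between tangerine and red, where 1.71% of all genes passed. For either tomato diet against control 0 of 14 passed (0.149% of all genes on red and 0.0142% on tangerine). At an unadjusted p under 0.05 there were 12 of 14 on red and 0 of 14 on tangerine, beside 13.3% and 5.47% of all genes. DESeq2 called 1, 0 and 9 clock genes for red against control, tangerine against control and tangerine against red. It called 1.29%, 0.0828% and 2.89% of all genes there. Limma-voom called 10, 0 and 10 clock genes, and 10.7%, 0.0142% and 5.30% of all genes. The clock score of a liver was the first principal component of 14 clock genes tested, with its sign set so that Dbp is high where the score is high, and it averaged 0.813 ± 2.83 on control, -2.53 ± 2.10 on red and 1.72 ± 2.40 on tangerine (SD, n = 12 each). Relative to the diet means, 2 of 9 family genes followed the score past an adjusted p of 0.05, and 1 did by rank. Adipor1 rose with the score (r 0.63, permutation p 5e-05, adjusted 0.00045; rho 0.56, permutation p 0.00074, adjusted 0.00666), with r of 0.60, 0.55 and 0.75 on control, red and tangerine and 0.62 without the 2 farthest livers. A correlation of that size with the score was seen for 2.27% of tested genes. Paqr9 fell with it (r -0.44, permutation p 0.0104, adjusted 0.0468; rho -0.41, permutation p 0.0171, adjusted 0.0770), with r of -0.43 without the 2 farthest livers, -0.47 on control, -0.71 on tangerine and -0.0030 on red, and 10.7% of tested genes had a correlation with the score of at least that size. For Mmd2 the r was -0.26 (permutation p 0.139, adjusted 0.209, with rho -0.20). It was -0.16 without red mouse 186 and tangerine mouse 216. For Adipor2 it was -0.31 over all livers (permutation p 0.0806, adjusted 0.181, with rho -0.15). Its r was -0.85 among the 12 tangerine livers, -0.04 on control and 0.31 on red. Tangerine mice numbered 198 or below had scores of -1.09 to 1.34, and those numbered 215 or above 0.434 to 5.47. The part of mouse number in the tangerine r was not tested.

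**Figure D5:**
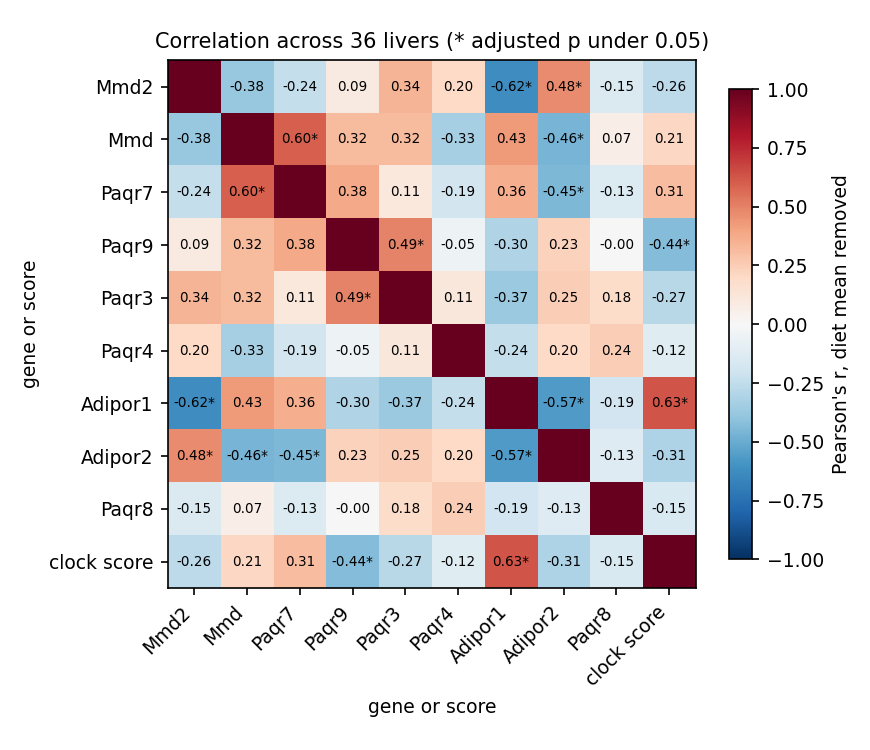
Pearson's r between the 9 tested PAQR genes and the clock score over 36 livers, each relative to its diet mean; colour and number give r, and a star an adjusted p under 0.05. Mmd2 and Adipor1 meet at -0.62, Mmd and Paqr7 at 0.60, and Adipor1 and the clock score at 0.63.

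With the clock score as a covariate in the edgeR fit, the log2 fold change of Mmd2 for red against control was -0.91, where it was -0.79 without it. That of Paqr9 was 0.21 in place of 0.37 for red against control (edgeR adjusted p 0.535) and -0.19 in place of -0.39 for tangerine against red (edgeR adjusted p 0.576). That of Adipor1 for tangerine against red was 0.0066 in place of 0.082 (edgeR adjusted p 0.961). The labels give no time of day of tissue collection, so an effect of diet and one of collection time on the score cannot be told apart.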

How the data were processed

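Liver RNA of 36 mice was sequenced with a strand-marking kit, per the labels' protocols. The authors deposited raw read counts per gene, with no normalization, and the submitters' processing notes name FastQC, Trimmomatic, edgeR and the build GRCm38.p6. Aligner, counting program, annotation and strand setting were not given in the sources used here. Columns were matched to samples by the column name in each label. Symbols, positions and exon lengths came from GENCODE M21 (GRCm38), which matched 53620 identifiers, and promoters from RefSeq.

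Genes were filtered with filterByExpr (a count of 10) and scaled by TMM in edgeR 4.0.16. The quasi-likelihood test was fitted to all 36 libraries, and p-values were adjusted by Benjamini-Hochberg over 14068 genes at a threshold of 0.05. Standard errors were derived from the F statistic. CPM was computed from the counts with the TMM-scaled library sizes, with a prior count of 2 before the log2. DESeq2 1.42.0 and limma 3.58.1 (voom) were alternatives, beside other filters and scaling and the clock score or mouse number as covariate. Fits were also made of only 2 groups or without mouse 186, 216 or 192. Leaving out each of these mice was chosen after seeing the data. Tests were tried on simulated data. Windows were searched for 7 motifs, of which those not named in the text are AGGTCA, TGACNNNGC and TGACGTCA. The limit of 3 counts for a library with no count covers counting error only. The 95% intervals of the log2 fold changes rest on the edgeR standard errors and include the spread between mice. Those of Mmd2 do not account for its choice from these livers. The labels do not state that libraries are separate litters or cages, so p-values measure the spread between these mice.

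Members and gene lists were chosen with earlier results of these data known. The rule named all members, the rest of the family, list genes past the threshold (0 in the pathway lists) and the 5 genes most and least correlated with Mmd2 and with Adipor2, of which 1 is not reported here. Other list genes were named after their values were seen.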

Additional observations from a re-analysis of the deposited data

How the results depend on the processing

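The Mmd2 difference between red and control lay between -0.91 (clock score as covariate) and -0.78 in all settings run. Of the 7 other members (6 with the mean log2 CPM filter, which removed Paqr4), 0 passed in any setting run in either comparison with control, and 1 (Paqr9) passed for tangerine against red under the DESeq2 test and 1 (the same gene) under limma-voom. The number of genes called over the whole table, 21 for red against control, was 59 when genes had to average a log2 CPM of 1 or more, 164 with the DESeq2 test, 1504 with limma-voom, 3 with the clock score, 54 without red mouse 186, 32 without tangerine mouse 216 and 53 without both. For tangerine against control, 2 became 6 with the DESeq2 test, 1 with the mouse number and 4 without tangerine mouse 192. For tangerine against red, 241 became 136 with no low-count filter, 391 with the DESeq2 test, 746 with limma-voom, 0 with the clock score, 32 with the mouse number, 89 without tangerine mouse 216 and 86 without both; the cause was not tested. By rank correlation, 3 of the 7 family pairs and 1 of the 2 relations with the clock score passed; with DESeq2 size factors 7 and 2 did. No paired analysis was possible because no mouse number occurs in more than 1 diet. Low counts limit Paqr4, Paqr8 and above all Paqr5 and Paqr6.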
